A study of Mus musculus with 6 samples.

Results

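Among CD45+ cells sorted from mouse midbrain, 965 of the 77105 cells kept from 4 libraries (1.25%) were border macrophages of the Lyve1 type that were low in MHC class II. They were chosen by measured values. A cell needed 500 to 15000 UMIs (unique molecular identifiers, each counting 1 captured RNA molecule), between 250 and 5000 genes detected and no more than 10% of counts from mitochondria. It then needed at least 4 UMIs over the 7 markers Mrc1, Pf4, Cd163, Cbr2, Lyve1, F13a1 and Ms4a7, and more of them than of the microglial genes P2ry12, Tmem119 and Siglech together. Finally, the MHC class II genes H2-Aa, H2-Ab1, H2-Eb1 and Cd74 had to hold under 1% of its UMIs. These 14 genes are therefore given as a description, with no test. The cells that met every limit except the last, 505 in number, are called border macrophages high in MHC class II. Microglia, 60401 cells, were those with at least 4 UMIs over the 3 microglial genes and more of them than of the 7 markers.

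Border macrophages live in the meninges, in the choroid plexus and along the vessels that enter the brain, outside the parenchyma that microglia occupy. They clear debris and proteins from the fluid around vessels with scavenger receptors and lectins, store and export iron, and recruit leukocytes with chemokines. Cells with the hyaluronan receptor Lyve1 and cells rich in MHC class II, which display antigen to T cells, are the forms most often told apart among them.

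All mice were male and of Line 61, in which human α-synuclein (α-Syn) is driven by the neuronal Thy1 promoter, and were 12 to 15 weeks old. They received PBS, α-Syn monomer or preformed fibrils of α-Syn (PFF) in both striata, and the PFF mice were then gavaged with vehicle (VH, DMSO) or with AZD1480, an inhibitor of JAK1 and JAK2, at 25 mg/kg daily from week 2 for 4 weeks. Ventral midbrains were collected at week 6, and 3 to 5 were pooled per sample. The transgene, the sex and the pooling of midbrains were thus common to all 4 groups, PBS, monomer, PFF + VH and PFF + AZD1480. Each group is 1 mRNA library, so library and condition cannot be told apart. The PFF + VH library carries 4 hashtags and the PFF + AZD1480 library 5, and a hashtag stands for a replicate below, which is assumed because the design gives as many replicates. PBS and monomer carry none and entered no test.

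Depth differed between libraries. The 4 libraries held 13813 to 34828 barcodes, and 13021 to 34436 cells were kept from each. The median was 2306 UMIs per kept cell in PFF + VH and 6616 to 7028 in the others. Any 2 libraries shared 45 to 151 cell barcodes, but the 965 members had 965 distinct barcodes. The automatic Scrublet limit marked at most 0.00684% of cells, so no cell was removed as a doublet, and the cells with the top scores were left out only as an alternative. In the hashtagged libraries 24.3% (PFF + VH) and 31.5% (PFF + AZD1480) of members carried more than 1 hashtag, against 10.7% and 12.5% of all kept cells, at medians of 4632 and 6331 UMIs against 2638 and 3138 in members with a single hashtag. These members count in library values but in no hashtag test. In sums over cells, fewer cells of a kind and less RNA per cell cannot be told apart.

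The members numbered 198 in PBS, 371 in PFF + VH and 270 in PFF + AZD1480, and the others were in monomer. Their levels are given as CPM, the counts of a gene scaled to 1000000 UMIs over all members of a library. In the order PBS, monomer, PFF + VH, PFF + AZD1480, which is kept throughout, Mrc1, the mannose receptor, lay at 2969, 2584, 1594 and 2349 CPM. Pf4, a platelet-type chemokine, lay at 2642, 2327, 1560 and 2712 CPM. F13a1, the A subunit of coagulation factor XIII, lay at 2441, 1852, 1071 and 1997 CPM. For these markers PFF + VH was the lowest library. Cd163, the receptor for haemoglobin bound to haptoglobin, ranged from 306 to 589 CPM and the carbonyl reductase Cbr2 from 236 to 365 CPM, again lowest in PFF + VH. Ms4a7, a membrane protein of macrophages outside the microglial lineage, varied least, at 598 to 765 CPM, and was lowest in PFF + AZD1480. In microglia the highest of the 7 markers, Mrc1 in PFF + VH, was at 8.31 CPM.

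**Figure D1:**
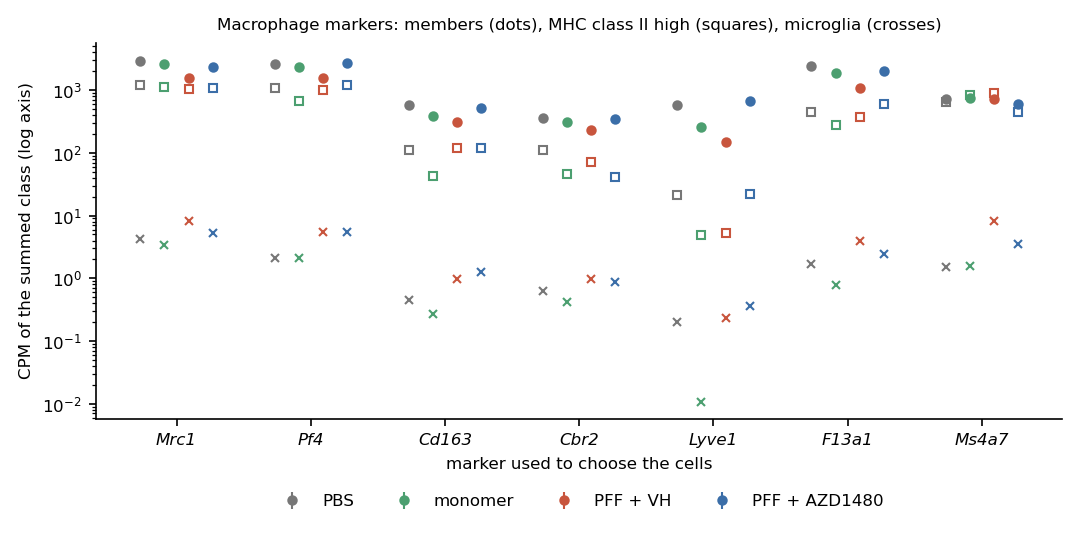
Each point is the CPM of a rule gene (logarithmic axis) in 1 of the 4 libraries, with dots for members, squares for border macrophages high in MHC class II and crosses for microglia, and with exact Poisson 95% intervals on the dots, often narrower than the dot. Members lie far above microglia for all 7 macrophage markers, and Lyve1 is the marker that varies most between libraries, from 147 to 673 CPM.

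Lyve1 (chr7:110850607-110863239 in GRCm38, minus strand) varied most between libraries. It lay at 583, 257, 147 and 673 CPM, and a Lyve1 UMI was found in 51.5%, 33.3%, 18.6% and 39.3% of members. After every member with at least 2000 UMIs was thinned to 2000, with 31 to 125 shallower members per library left out, the shares were 42.6% (exact binomial 95% interval 34.7 to 50.8), 23.2% (15.1 to 32.9), 17.1% (12.6 to 22.4) and 36.3% (29.3 to 43.8). Microglia, which should lack the gene, had a Lyve1 UMI in 0.00777 to 0.235% of cells and T cells in 0 to 0.719%, without thinning, at medians of 2975 to 7474 and 3508 to 6895 UMIs. Lyve1 is itself one of the genes that chose the members, so these shares are a description and the intervals no test. All intervals here cover counting error only.

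The members were not a uniform population. The 7 markers held 0.8% or more of the UMIs in 458 of the 965 members (47.5%) and under 0.1% in 30, with 66 between 0.1 and 0.2%, 141 between 0.2 and 0.4% and 270 between 0.4 and 0.8%. Other macrophage genes that the rule did not use were higher with a higher marker share. Stab1, a scavenger receptor, went from 28.9 CPM in the lowest bin through 105, 352 and 654 to 1307 in the highest, and the folate receptor Folr2 from 14.4 to 581. Ccr2, the chemokine receptor of inflammatory monocytes, went the other way, at 267, 323, 199, 7.99 and 0.494 CPM, as did Ly6c2, a monocyte surface antigen, at 267, 334, 92.6, 8.99 and 0.494 CPM. In the lowest bin Mrc1 was at 18.1 CPM and Lyve1 at 0, so the label rests on few molecules in the cells below 0.2%, while Ms4a7 was at 426 CPM even there. Members with markers at 0.8% or more of UMIs, called strong members below, made up 65.2% of members in PBS (129 cells), 46.0% (58), 30.5% (113) and 58.5% (158) in the other 3. Whether this mix moved a library comparison was not tested, and values in strong members are given for several genes of those comparisons.

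**Figure D2:**
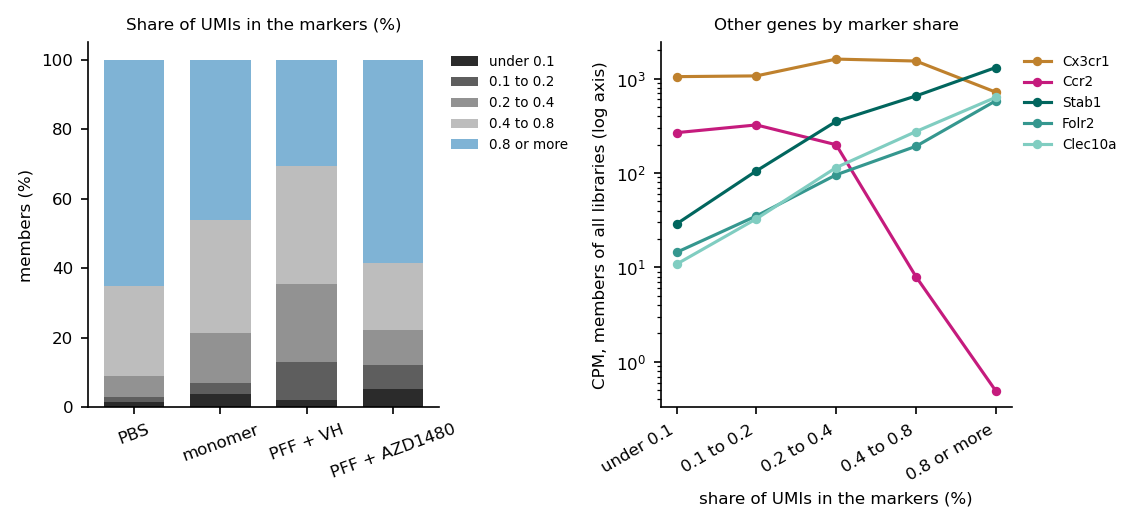
Stacked bars (left) give the percent of each library's members in 5 ranges of the share of UMIs taken by the 7 markers, and lines (right, logarithmic axis) the CPM of 5 other genes in these ranges over the members of all libraries. The median share was 0.987, 0.737, 0.553 and 0.976% in PBS, monomer, PFF + VH and PFF + AZD1480.

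Near the limits of the rule, 112 members had 4 or 5 marker UMIs, and 69 cells with 3 stood just outside. MHC class II genes held 0.5 to 1% of UMIs in 67 members and 1 to 1.5% in 38 cells just outside. Most members lay far from that limit, with 692 under 0.1% inside it and 427 cells over 2% outside. No MHC class II UMI was found in 50%, 38.1%, 32.1% and 40.4% of members. Cells with at least 3 UMIs over T-cell receptor and CD3 genes passed the rule in 0 of 223 in PBS and 0 of 175 in monomer, which allow shares of up to 1.64% and 2.09% (exact binomial 95% bounds), and in 18 of 283 (6.36%) in PFF + VH and 4 of 139 (2.88%) in PFF + AZD1480. Markers of T and NK cells summed to 19.3, 27, 229 and 201 CPM in the members of the 4 libraries, with 6 of 13 at 0 in PBS and in monomer and none at 0 in the PFF libraries. The 9 microglial markers not used by the rule summed to 3827, 4607, 6510 and 5047 CPM in members, against 15853 to 18022 in microglia, with none at 0. Monocyte markers summed to 486 to 753 CPM with none of the 9 at 0. B-cell, neutrophil and dendritic-cell markers summed to 142 to 373 CPM, and oligodendrocyte, astrocyte, neuron, endothelial, mural and red-cell markers to at most 108 CPM each. The part of such RNA in the results below was not tested.

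Members made up 1.35% (exact binomial 95% interval 1.17 to 1.56), 0.838% (0.699 to 0.997), 1.08% (0.971 to 1.19) and 2.07% (1.84 to 2.33) of kept cells in the 4 libraries. Of border macrophages they made up 63.1% (57.5 to 68.4), 45.5% (39.5 to 51.6), 77.0% (72.9 to 80.7) and 68.0% (63.2 to 72.6). The monomer library was the lowest on both counts. With every cell thinned to 2000 UMIs before the rule was applied, members were 1.14%, 0.711%, 1.07% and 1.29% of cells and 66.8%, 50.3%, 76.6% and 65.5% of border macrophages. For PFF + AZD1480 and PFF + VH as a share of cells the intervals were then 1.09 to 1.51 and 0.926 to 1.22, which overlap. Thinned to 1000 UMIs they did not overlap, at 1.33% (1.13 to 1.54) and 0.794% (0.695 to 0.903). These intervals count cells of 1 library per condition and hold no spread between replicates. Over hashtags, as described next, the difference at 1000 UMIs was 0.0202 percentage points (exact permutation p = 0.952).

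Whether AZD1480 changed these shares was asked over hashtags. A single hashtag was called in 66.6% of members and 52.0% of all kept cells in PFF + VH (66.7% and 81.0% in PFF + AZD1480). No hashtag was called in 9.16% of members and 37.3% of all kept cells in PFF + VH (1.85% and 6.41% in PFF + AZD1480). Hashtag shares thus differ from the library shares of 1.08% and 2.07%, and the part of this uneven loss was not tested. Of single-hashtag CD45+ cells, members were 1.35, 1.80, 1.41 and 1.08% in PFF + VH and 1.90, 2.01, 0.641, 1.59 and 2.18% in PFF + AZD1480. The groups overlapped, and the lowest value belonged to AZD1480 hashtag 3, which held 9 members. The means were 1.66 ± 0.610% (SD, n = 5) with AZD1480 and 1.41 ± 0.298% (SD, n = 4) with VH, a difference of 0.251 percentage points that did not pass a two-sided exact permutation test (p = 0.476, smallest possible 0.0159). Without AZD1480 hashtag 3 the difference was 0.506 percentage points (exact permutation p = 0.0571), and its direction turned with hashtags called by MULTIseqDemux in place of HTODemux (-0.337) and at 2000 UMIs per cell (-0.310). Of border macrophages, members were 67.0, 68.0, 85.7 and 69.9% with VH and 64.3, 70.4, 52.9, 67.1 and 80.6% with AZD1480. These groups overlapped too, and the difference between the means of 72.7 ± 8.79% (SD, n = 4) and 67.1 ± 10.0% (SD, n = 5) did not pass the same exact permutation test (p = 0.349). With AZD1480 minus VH the difference was -5.59 percentage points, -4.96 at 1000 UMIs per cell (exact permutation p = 0.619) and -14.9 at 2000 (exact permutation p = 0.0476).

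**Figure D3:**
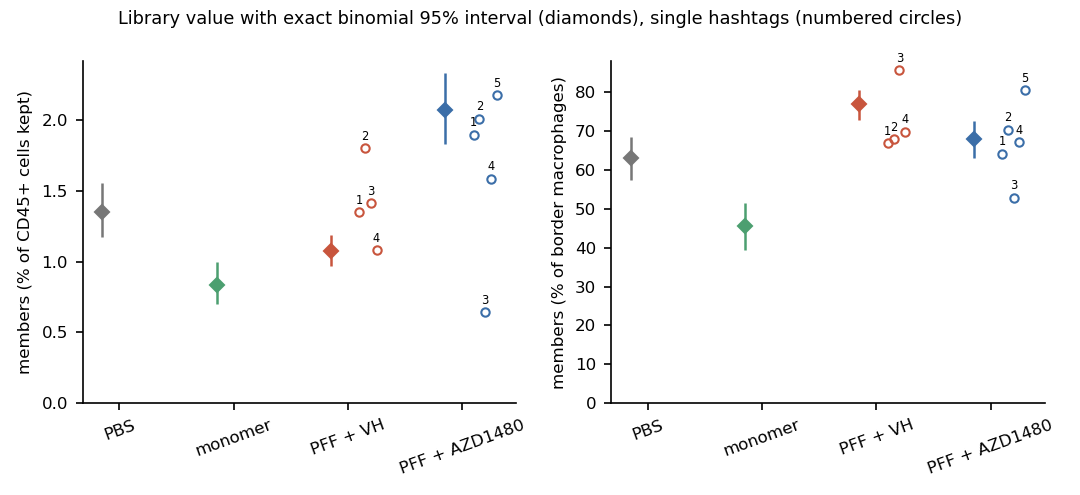
Members as a percent of CD45+ cells (left) and of border macrophages (right), with diamonds for the 4 libraries and their exact binomial 95% intervals and numbered circles for the hashtags. The hashtag values of the PFF groups overlap in both panels, and AZD1480 hashtag 3 is the lowest hashtag of each, at 0.641% and 52.9%.

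Lectins and scavenger receptors were among the genes that separated members from border macrophages high in MHC class II. Among 3666 genes compared, 62 (1.69%) were at least 2-fold higher in members in 4 of 4 libraries and 38 (1.04%) at least 2-fold lower, where the higher class averaged 50 CPM or more. The rule separates these classes, so the counts are a description with no test. The classes also differed in marker share. In the order of libraries kept throughout, the median share of UMIs in the macrophage markers was 0.987, 0.737, 0.553 and 0.976% in members. It was 0.295, 0.260, 0.337 and 0.259% in border macrophages high in MHC class II. Within members, Stab1 and Folr2 were also higher with a higher marker share. The part of marker share in the differences between the classes was not tested. Of 20 lectins and scavenger receptors compared, 10 were higher and 1, the receptor tyrosine kinase Axl, lower, with a median log2 difference of 1.17 against 0.12 over all genes. The C-type lectin Cd209f was at 338, 373, 190 and 247 CPM in the members of PBS, monomer, PFF + VH and PFF + AZD1480, and at 17.3, 5.86, 5.25 and 14.9 CPM in the other class, a difference of 16.6- to 63.6-fold. The scavenger receptor Colec12 was at 386, 190, 179 and 346 CPM against 46.5, 22.5, 21.0 and 16.1. Folr2 was at 496, 344, 260 and 269 CPM against 43.8, 33.2, 63.0 and 40.9. Each of these genes was higher in members in all 4 libraries.

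The other leading genes were Slc40a1, Pla2g2d, P2rx7, Samd4, Magi1 and a predicted gene. Slc40a1, ferroportin, the only known exporter of cellular iron, was at 164, 99.95, 109 and 107 CPM in members against 14.6, 14.7, 7.87 and 9.92, and was the single gene of 12 for iron and haem handling to be higher. Pla2g2d, a secreted phospholipase A2, was at 70.6 to 128 CPM in members against 8.79 to 21.0, and P2rx7, an ATP-gated channel, at 573 to 1178 against 113 to 198. Of 23 chemokines and cytokines, 6 were higher in members (Ccl7, Ccl24, Il1a, Igf1, Gas6 and Vegfb) and 1, Il1b, lower. Ccl24, an attractant of eosinophils, was at 345 to 694 CPM against 21.5 to 102, and the growth factor Igf1 at 194 to 213 against 14.9 to 91.8. Igf1 was thus almost level across the 4 libraries in members. Of 30 lysosomal genes, the cathepsins Ctsd and Ctsl were higher.

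On the lower side stood the machinery of antigen display beyond the 4 genes of the rule. Ciita, the master activator of MHC class II transcription, was at 5.78, 6.35, 0.747 and 5.82 CPM in members against 146, 152, 121 and 136. H2-DMb1, which loads peptides onto MHC class II, was at 36.6 to 82.2 CPM against 573 to 645, and H2-DMa and H2-DMb2 were lower as well, so that 4 of 19 genes of antigen presentation were lower and none higher. Tnip3, an inhibitor of NF-κB signalling, was at 0, 17.5, 18.7 and 13.8 CPM against 167 to 283. Runx3 was the only transcription factor of 24 to be lower. Among 23 interferon-stimulated genes and 12 JAK/STAT genes none differed by 2-fold in 4 of 4 libraries, with medians of 0.05 and -0.28 on the log2 scale. Of 7 monocyte markers compared, Chil3 was higher in members and Ccr2 lower, at 45.6 to 113 against 303 to 330 CPM, and the median log2 difference of the list was 2.46. Chil3 was held by 4, 2, 12 and 8 members, and at most 3 cells of a library carried 64.2 to 100% of its UMIs.

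**Figure D4:**
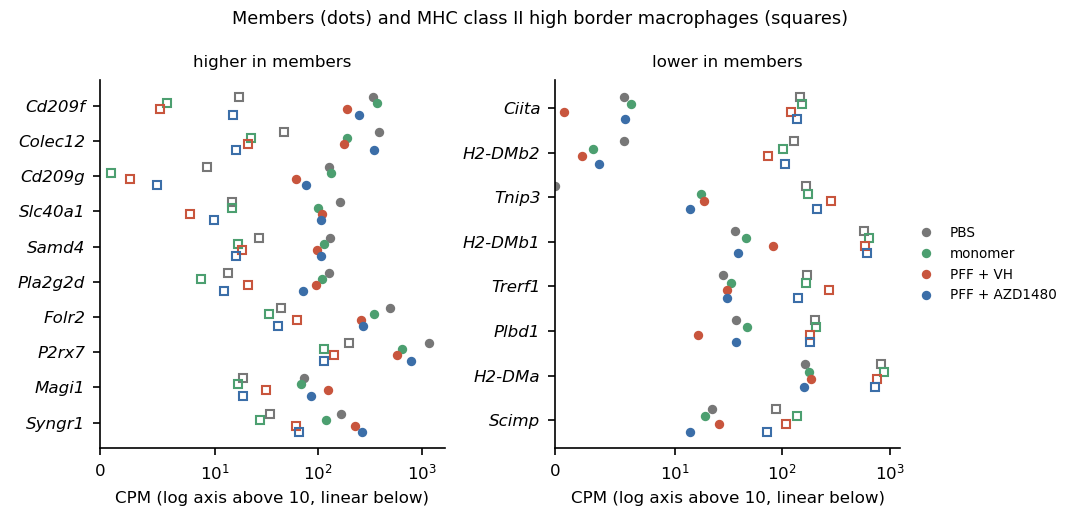
CPM of the genes that differ most between members (dots) and border macrophages high in MHC class II (squares), 1 symbol per library, on an axis that is linear below 10 and logarithmic above. Dots and squares of a gene do not overlap in any row, as with Cd209f at 190 to 373 against 5.25 to 17.3 CPM.

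Against microglia the contrast was wider. Of 3965 genes, 259 (6.53%) were at least 2-fold higher in members in 4 of 4 libraries and 226 (5.7%) lower, again a description that follows from the rule. Of 20 lectins and scavenger receptors, 16 were higher and 1, the efferocytosis receptor Mertk, lower, with a median log2 difference of 6.79 against -0.07 over all genes. Clec10a, a galactose-binding lectin, was at 526, 460, 364 and 235 CPM in members and at most 1.56 in microglia, and Dab2, an endocytic adaptor, at 1815, 1661, 880 and 1507 against 9.10 to 12.2. Apoe, the main apolipoprotein of the brain, was the most abundant gene of the lists, at 40407, 41598, 31932 and 32207 CPM in members and 1415 to 3818 in microglia, but also at 23332 to 35626 in border macrophages high in MHC class II.

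Interferon-stimulated genes were also above microglia, 11 of 20 higher and none lower, with a median log2 difference of 1.84. All 7 monocyte markers compared were higher as well, with a median of 4.73, and the part of monocyte RNA was not tested. Ifitm3, which blocks viral entry, was at 1123, 931, 661 and 513 CPM against 23 to 88, and Ifi207, a nucleic-acid sensor of the interferon-inducible 200 family, at 634, 546, 388 and 627 against 7.69 to 21.4. Of 23 chemokines and cytokines 9 were higher, among them the monocyte attractants Ccl2, at 1634 to 3489 CPM against 161 to 217, and Ccl7, at 527 to 1805 against 4.74 to 7.34. Il1a, at 82.5 to 287 against 608 to 900 CPM, and Csf1 were lower than in microglia. Ccl3 and Ccl4, attractants that microglia also make, overlapped between the classes, at 1487 to 1971 against 1462 to 2629 CPM and 2171 to 4341 against 3827 to 5706. The ferritin chains Fth1 and Ftl1 and the biliverdin reductases Blvra and Blvrb were among 5 of 12 iron and haem genes that were higher. Of 24 transcription factors 1, Maf, was higher, at 824 to 1505 CPM in members and 293 to 416 in microglia. The complement genes C1qa and C1qc overlapped between the classes, C1qa at 5549 to 6779 CPM in members and 6314 to 7477 in microglia, and C1qb was at 4647 to 4979 against 5260 to 6329 CPM. Lower than in microglia were Slc2a5, a fructose transporter, at 11.6 to 35.9 against 138 to 227 CPM, and Csmd3, a large membrane protein with CUB and sushi domains, at 257 to 748 against 3108 to 3999.

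The most abundant genes of the other lists were found in microglia as well. Csf1r, the receptor for the growth factor Csf1, was at 1410, 1450, 1298 and 1422 CPM in members and 1912 to 2393 in microglia. Cx3cr1, the fractalkine receptor, was at 913, 1101, 1228 and 1085 CPM against 2893 to 3816, and Tgfbr1, a receptor for transforming growth factor β, at 373 to 646 against 1646 to 1864. Both were lower, as was Csf3r, and of 27 receptors Ccr1 and Ednrb were higher. Among lysosomal proteases Ctsb was at 2201 to 2587 CPM against 1171 to 1571, and Ctsc at 1614 to 2454 against 597 to 729. Ctsc and Cd63 were the 2 of 30 lysosomal genes that were higher. Ctss, the cathepsin that trims the invariant chain of MHC class II, was at 1806 to 3391 CPM against 5065 to 6232. Of the class I genes, B2m overlapped between the classes at 1890 to 2524 against 1774 to 2480 CPM, and H2-D1 was at 1171 to 1569 against 777 to 1114. Cd83, an activation marker of antigen-presenting cells, was at 1135 to 2118 CPM against 2204 to 3109.

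Secreted factors and transcription factors were mixed. Ccl12, a ligand of Ccr2, was at 1076 to 1762 CPM in members against 194 to 361 in microglia, and Lgals1, galectin-1, at 420 to 790 against 19.0 to 35.8. The iron carrier transferrin, Trf, was at 800 to 1282 CPM against 560 to 611. Ifitm2 was at 362 to 668 CPM against 7.22 to 11.9, and Bst2, which tethers virus particles to the membrane, at 365 to 557 against 105 to 164. Trem2, a lipid-sensing receptor of microglia, was at 617 to 1095 CPM against 1702 to 1874, and its adaptor Tyrobp overlapped at 2170 to 2546 against 1766 to 2452. The transcription factor Mef2a was at 729 to 792 CPM against 1512 to 1789, Mef2c at 997 to 1205 against 1235 to 1564 and the NF-κB inhibitor Nfkbia at 754 to 1530 against 1748 to 2281. None of 26 immediate early and heat shock genes differed by 2-fold in 4 of 4 libraries. Jun overlapped at 4036 to 5712 against 4123 to 4919 CPM, while Fos was at 2888 to 4715 against 2501 to 2785 and Junb at 1490 to 2753 against 3162 to 3628. Pim1, a kinase induced by STAT proteins, was at 135 to 260 CPM against 67.4 to 87.2. The nuclear RNA Malat1 was at 21035 to 22693 CPM against 17822 to 19682.

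Members with and without a Lyve1 UMI were also set side by side. At 2000 UMIs per cell, 195 members had a Lyve1 UMI and 480 did not, and of 2010 genes with at least 100 CPM in 1 of the pools 26 were at least 2-fold higher with Lyve1 in 4 of 4 libraries and 39 lower. Ednrb, an endothelin receptor, was at 128 CPM with and 21.9 without a Lyve1 UMI, Folr2 at 711 and 201, Cd209b at 208 and 67.7, Ccl24 at 899 and 315 and Ccl7 at 1869 and 710. These are pooled values, and in PBS Ccl24 (455 and 242) and Ccl7 (812 and 792) did not reach 2-fold. Cd209f was higher with Lyve1 in 3 of 4 libraries, and Mertk in 1. Fn1, Chil3, Lgals3 and S100a4 were lower with Lyve1 in 4 of 4 libraries. Fn1, fibronectin, was at 121 CPM without and had no count with a Lyve1 UMI, the chitinase-like Chil3 was at 122 and 0, the galectin Lgals3 at 218 and 7.70, and the calcium-binding S100a4 at 131 and 10.3. Chil3 rested on few cells. In monomer, where 22 members had a Lyve1 UMI at this depth, it was at 13.7 CPM without one and was held by 2 members. The split also ran along the other markers of the rule. Without a Lyve1 UMI, Mrc1 (1923 against 3456 CPM), Cd163 (335 against 755), Pf4, Cbr2 and F13a1 were lower, and Ms4a7 was higher. In members with markers under 0.2% of UMIs, Lyve1 was at 0 to 2.34 CPM and Ccr2 and Ly6c2 at 267 to 334. The part of marker share and of monocyte RNA in these differences was not tested. The split uses a measured gene, so no test was made.

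Cell-cycle RNA was sparse. At 2000 UMIs per cell, at least 2 UMIs over 24 cell-cycle genes were found in 7.74%, 7.37%, 9.76% and 7.82% of members and in 3.1%, 4.1%, 6.2% and 3.7% of 1000 microglia drawn per library. Members had the higher share in each library, but the exact binomial intervals of members and microglia overlapped there, and no test was made. Cenpf was at 28.4 to 34.9 CPM in members and 3.09 to 11.3 in microglia, and Mcm3 at 13.8 to 29.9 against 21.5 to 27.0. Mki67, a marker of dividing cells, was at 1.59 to 17.9 CPM in members and 3.79 to 17.4 in microglia. Pcna, a clamp of DNA replication, was at 83.7 to 135 against 75.1 to 84.3 CPM.

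Monomer was set against PBS to ask what the protein itself did without fibrils. With 1 library each there was no test, and 39 of 3883 genes (1%) were at least 2-fold higher and 56 (1.44%) lower. The interferon-inducible chemokine Cxcl10 was at 71.4 CPM in monomer (exact Poisson 95% interval 52.1 to 95.5) and 2.89 in PBS (0.596 to 8.45), but 36 of its 45 UMIs in monomer came from 3 members. In strong members it was at 62.6 and 1.49 CPM. The anti-inflammatory cytokine Il10 was at 53.9 (37.4 to 75.4) and 7.71 CPM (3.33 to 15.2), with 25 of 34 UMIs in 3 members, and in strong members at 31.3 and 11.9 CPM. Cd55, which protects cells from complement, was at 60.3 and 12.5 CPM, from 12 monomer members. Glipr1, at 73 and 15.4 CPM, was spread more widely, with 17 of 46 UMIs in 3 of the 16 monomer members that held it. Retnla, a marker of alternative activation, was lower in monomer, at 1.59 against 52.0 CPM, and its 54 UMIs in PBS came from 2 members. Hspa1b, an inducible heat-shock protein, was at 93.6 CPM in monomer and 309 in PBS, spread over 76 PBS members, and in strong members at 94 and 259. Plk2, a polo-like kinase, was at 15.9 and 70.4 CPM. None of the 23 interferon-stimulated or 13 JAK/STAT genes compared passed 2-fold, with medians of -0.22 and 0.06 on the log2 scale against -0.05 over all genes.

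PFF + VH was set against monomer, a contrast that joins fibrils with gavage of vehicle. The paper describes gavage for PFF mice only, so fibrils and gavage cannot be told apart. Here 104 of 3816 genes (2.73%) were at least 2-fold higher in PFF + VH and 54 (1.42%) lower, again between 1 library and 1 library. The proteases of mast cells led the list. Mcpt2 was at 358 CPM and had no UMI in monomer, at least 75.2-fold higher with a floor of 3 counts over the members of a library, but all of its 479 UMIs came from 3 members. Over the 5 mast-cell genes of this list, Mcpt2, Cma1, Mcpt4, Tpsb2 and Cpa3, 1352 UMIs were found in 4 members, 526 of them in 1 cell that carried more than 1 hashtag, and single-hashtag members of PFF + VH held 0 to 4.01 CPM of mast-cell markers per hashtag. The mast-cell genes were thus found in few members. Mmp12, the macrophage elastase, was at 229 CPM against 0, at least 48.2-fold higher, from 23 members, and was at 64.6, 8.02, 949 and 65.6 CPM in hashtags 1 to 4. In the strong members of both libraries it was at or under that floor.

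Genes for lipid handling and of disease-associated microglia were higher in PFF + VH in 5 of 14 cases and lower in none, with a median of 0.65 on the log2 scale against -0.03 over all genes. Spp1, osteopontin, was at 11.6, 44.4, 469 and 333 CPM, and was 10.6-fold higher in PFF + VH than in monomer. Its hashtag values were 71.1, 100.2 and 571 CPM in hashtags 1 to 3 and 1614 in hashtag 4 of PFF + VH, and 50.8, 1619, 1627, 93.0 and 97.7 CPM with AZD1480. It rested on few cells, with 356 of 457 UMIs in 3 members in PFF + AZD1480 (271 in 1 of them), 268 of 628 in 3 members in PFF + VH and 21 of 28 in 3 members in monomer. Lpl, lipoprotein lipase, was at 5.78, 38.1, 113 and 127 CPM in the 4 libraries, Lgals3 at 78.1, 92.0, 368 and 181, and Cd9, a tetraspanin, at 173, 262, 796 and 530. In strong members the levels were lower, with Spp1 at 11.9, 6.96, 57.9 and 15.6 CPM, Lpl at 2.98, 0, 19.3 and 11.4, Lgals3 at 8.94, 0, 16.5 and 9.94 and Cd9 at 64.1, 59.2, 265 and 135. The share of strong members also moved between these libraries (46.0% in monomer, 30.5% in PFF + VH), as did the summed microglial markers (4607 and 6510 CPM), and their part in the differences was not tested.

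Cytokines differed in both directions, 4 of 25 higher in PFF + VH (Ccl5, Il1a, Tnf and Csf1) and 4 lower (Ccl7, Cxcl1, Cxcl2 and Il10). The growth factor Csf1, on which macrophages depend, was at 113 CPM in PFF + VH and 19.0 in monomer, and in strong members at 46.8 and 0. Tnf was at 725 and 216 CPM, and in strong members at 477 and 150. Lectins and scavenger receptors were higher in none and lower in 3 of 22 cases (Cd209g, Mgl2 and Siglec1), with a median of -0.48. Mgl2, a galactose-type lectin, was at 146 CPM in PFF + VH and 399.8 in monomer, and in strong members at 237 and 633. No interferon-stimulated or JAK/STAT gene of 21 and 11 compared passed 2-fold, with medians of -0.30 and -0.0050. Of 5 genes that the study names for its cluster MM4, a list chosen on these samples and so no independent evidence of a direction, Nav3 and Csmd3 were higher in PFF + VH.

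AZD1480 was compared with VH over the single-hashtag members, 247 in 4 pools with VH and 180 in 5 pools with AZD1480. Of 3906 genes outside the rule, 3 (0.0768%) rose and 3 (0.0768%) fell at an adjusted p under 0.05 in the quasi-likelihood F-test of edgeR (p-values adjusted by Benjamini-Hochberg). At an unadjusted p under 0.05 there were 154 higher and 150 lower among all 3920 genes tested. The hashtag values did not overlap, with AZD1480 higher, for 40 genes (1.02%), and with AZD1480 lower for 71 (1.82%). Those that rose were the cytokines Il1b and Cxcl2 and the transcription factor Ets2, and those that fell were Slfn8, Csmd3 and Ccdc152.

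Il1b, the precursor of interleukin-1β (chr2:129364570-129371139, minus strand), was at 200.4, 373, 594 and 175 CPM with VH and 1415, 1224, 789, 761 and 1885 CPM with AZD1480. Every AZD1480 pool was above every VH pool, and the log2 fold change was 1.86 (SE 0.349, edgeR adjusted p = 0.0329). In border macrophages high in MHC class II its values overlapped, at 50.7 to 2443 CPM with VH and 1823 to 5083 with AZD1480 (log2 0.788, edgeR adjusted p = 0.675). In microglia they overlapped too, at 292 to 416 and 404 to 538 CPM. In strong members, a set chosen after seeing the data, the Il1b ranges were 59.8 to 158 and 273 to 1815 CPM (log2 3.26, edgeR adjusted p = 0.00705). They rested on 27 UMIs with VH and 384 with AZD1480. VH hashtag 4 held 12 strong members and AZD1480 hashtag 3 held 3. Cxcl2, a neutrophil attractant (chr5:90903871-90905938, plus strand), was at 982, 854, 1314 and 774 CPM with VH and 2233, 2157, 1824, 2236 and 3429 CPM with AZD1480. These groups did not overlap either, with a log2 fold change of 1.28 (SE 0.234, edgeR adjusted p = 0.0283). In border macrophages high in MHC class II Cxcl2 overlapped, at 974 to 5201 CPM with VH and 1588 to 4286 with AZD1480 (log2 0.635, edgeR adjusted p = 0.675). In microglia it overlapped at 83.8 to 144 and 142 to 220 CPM. Neither Il1b nor Cxcl2 passed the interaction test between the classes given below. Ets2, a transcription factor downstream of MAP kinases (chr16:95702075-95721051, plus strand), was at 77.6, 156, 93.5 and 131 CPM with VH and 275, 379, 394, 296 and 313 CPM with AZD1480. Its log2 fold change was 1.49 (SE 0.255, edgeR adjusted p = 0.0218), and it also rose in border macrophages high in MHC class II (log2 1.85, edgeR adjusted p = 0.0313). With hashtags called by MULTIseqDemux none of the 3 passed, and another gene did. In strong members Cxcl2 and Ets2 did not pass (log2 1.38 and 1.03, edgeR adjusted p = 0.304 for both). Without VH hashtag 1 none of the 3 passed, though 2 other genes did. Without VH hashtag 4 or without AZD1480 hashtag 2 no gene rose at the threshold in edgeR (116 and 123 were higher at an unadjusted p under 0.05), and without VH hashtag 2 or AZD1480 hashtag 5 Ets2 alone of the 3 passed. Ets2 also missed the threshold without VH hashtag 3 (edgeR adjusted p = 0.0778) and Il1b without AZD1480 hashtag 1 (edgeR adjusted p = 0.0538). Cxcl2 missed it with at least 6 marker UMIs per member, with MHC class II under 0.5% and with members chosen after thinning to 1000 UMIs (edgeR adjusted p = 0.098, 0.472 and 0.0679).

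Over whole libraries, Il1b was at 359, 560, 428 and 946 CPM. Cxcl2 was at 1255, 1785, 888 and 1916 CPM and Ets2 at 143, 230, 113 and 269. For both Cxcl2 and Ets2 PFF + VH was the lowest of the 4 libraries, and the monomer value was nearer to that of PFF + AZD1480.

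Slfn8, a Schlafen gene induced by interferon (chr11:83002158-83020810, minus strand), was at 200.4, 221, 131 and 192 CPM with VH and 59.3, 27.4, 49.3, 80.3 and 9.77 CPM with AZD1480. The groups did not overlap, with a log2 fold change of -1.90 (SE 0.335, edgeR adjusted p = 0.0236). The call was lost without VH hashtag 1, 2 or 4 or AZD1480 hashtag 2 (edgeR adjusted p = 0.0611 to 0.102). Slfn8 fell in border macrophages high in MHC class II as well (log2 -1.92, edgeR adjusted p = 0.0313), and its microglial hashtag values were 210 to 379 CPM with VH and 34.2 to 42.5 with AZD1480. Over libraries it was at 263, 254, 185 and 50.2 CPM in members, so PFF + AZD1480 stood apart from the other 3. In strong members its groups overlapped, at 89.7 to 198 against 14.5 to 199.7 CPM.

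Csmd3 (chr15:47580637-48792063, minus strand) was at 401, 866, 491 and 521 CPM with VH and 233, 137, 98.6, 148 and 127 CPM with AZD1480, a log2 fold change of -1.85 (SE 0.268, edgeR adjusted p = 0.00422). Csmd3 is abundant in microglia, where its hashtag values were 2635 to 3763 CPM with VH and 3018 to 4074 with AZD1480 and overlapped. In border macrophages high in MHC class II it was lower with AZD1480 without overlap, at 74.8 to 128 against 143 to 407 CPM. It did not pass the threshold there (log2 -1.14, edgeR adjusted p = 0.303), nor did it pass the interaction test between the classes given below. In members the microglial genes of the rule summed to 767 to 1034 CPM with VH and 468 to 627 with AZD1480, with no overlap. These genes helped to choose the members, so their values are a description only. The microglial markers outside the rule overlapped, at 4848 to 5967 CPM with VH and 3268 to 6361 with AZD1480. Over all members of a library Csmd3 was at 302, 257, 748 and 463 CPM, so PFF + AZD1480 was above PBS and monomer, and 132 of its 636 UMIs there were in single-hashtag members. In strong members Csmd3 did not pass the threshold (log2 -1.48, edgeR adjusted p = 0.206) and its groups overlapped. Ccdc152 (chr15:3280070-3303526, minus strand), a coiled-coil gene, was at 246, 200.5, 112 and 162 CPM with VH and 12.7, 11, 0, 29.6 and 39.1 CPM with AZD1480, a log2 fold change of -3.11 (SE 0.383, edgeR adjusted p = 0.00089). It overlaps Selenop on the opposite strand, and whether this affects its counts was not tested. Over libraries it was at 24.1, 28.6, 149 and 18.2 CPM, and PFF + VH was the highest and PFF + AZD1480 the lowest library in microglia too (13.3, 11.8, 65.7 and 8.63 CPM). In border macrophages high in MHC class II its hashtag values were also lower with AZD1480 without overlap, at 0 to 24.9 against 29.8 to 172 CPM. Those rested on 4 UMIs with AZD1480 and 33 with VH. Gm42418, which overlaps ribosomal RNA, also differed without overlap in members, at 11762 to 15215 CPM with VH and 8626 to 10330 with AZD1480. Summed markers of T and NK cells had means of 219 CPM with VH and 18.2 with AZD1480, and their ranges, 16.0 to 349 and 0 to 42.3, overlapped through VH hashtag 2 alone. Those of monocytes, dendritic cells and the other microglial markers overlapped as well. The part of these in the calls was not tested.

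**Figure D5:**
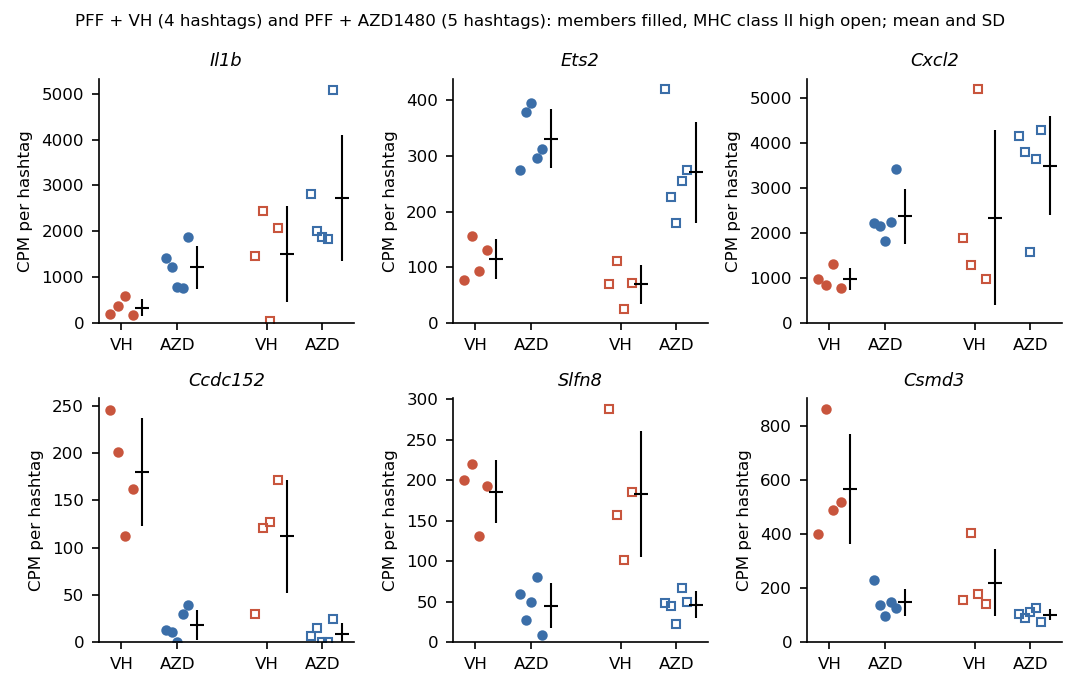
CPM per hashtag of the 6 genes past the threshold, for the 4 VH and 5 AZD1480 pools, in members (filled) and in border macrophages high in MHC class II (open squares), with the mean and SD of each. In members the pools of the groups overlap in none of the 6 genes, and Cxcl2 of AZD1480 hashtag 5, at 3429 CPM, stands furthest from its group in absolute CPM, though not by fold.

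By gene list, chemokines and cytokines had 2 of 22 genes higher and none lower, with a median log2 fold change of 0.36 against -0.0024 over all genes. Ccl2 was at 2101, 1624, 561 and 1724 CPM with VH and 3186, 4407, 3969, 2921 and 4913 CPM with AZD1480, without overlap, but did not pass the threshold (log2 1.40, SE 0.310, edgeR adjusted p = 0.0868). Cd14, the co-receptor for lipopolysaccharide, was at 814 to 1239 CPM with VH and 1412 to 2898 CPM with AZD1480 and did not pass it either (log2 1.06, edgeR adjusted p = 0.0923). Immediate early and heat shock genes had none of 26 past the threshold, with 23 of 26 log2 fold changes above 0 and a median of 0.41. Btg2, an antiproliferative early-response gene, was at 1915 ± 265 CPM (SD, n = 4) with VH and 2782 ± 297 (SD, n = 5) with AZD1480 (log2 0.57, edgeR adjusted p = 0.431).

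AZD1480 acts on JAK1 and JAK2, and of 12 JAK/STAT genes tested none passed the threshold, with a median of -0.04. Jak1, a target of AZD1480, was at 288 ± 81.2 CPM (SD, n = 4) with VH and 185 ± 53.0 (SD, n = 5) with AZD1480, Stat3 at 280 ± 41.4 and 301 ± 95.5, and the feedback inhibitor Socs3 at 195 ± 97.8 and 192 ± 56.7. Interferon-stimulated genes had Slfn8 as the only 1 of 20 to pass, with 5 of 20 values above 0 and a median of -0.27. Ifitm3 was at 747 ± 228 and 528 ± 282 CPM, within the spread, and Ifi207 at 436 ± 84.7 and 648 ± 203. Antigen presentation had none of 16 past the threshold and a median of -0.20, lectins and scavenger receptors none of 21 and 0.21, lipid genes none of 14 and 0.23, lysosomal genes none of 31 and -0.02, and iron and haem genes none of 12 and 0.10. Complement (none of 10), receptors (none of 28), transcription factors (none of 24) and the cell cycle (none of 1) also held no call. Of the 5 MM4 genes Csmd3 fell, and the list's median was -1.28. Of 8 genes on a list headed nuclear long RNAs and genes that overlap rRNA, the 1 that fell was Ccdc152, which is annotated as protein-coding and is neither, and the median was -0.35. Nav2, a neuron navigator gene of the MM4 list, was at 317, 249, 304 and 398 CPM with VH and 174, 98.8, 98.6, 67.6 and 19.5 CPM with AZD1480 without passing (edgeR adjusted p = 0.0571).

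For the rule genes, given with no test, Lyve1 was at 123, 361, 178 and 13.1 CPM with VH and 805, 417, 98.6, 786 and 801 CPM with AZD1480, which overlap. Summed over the 7 markers the ranges were 4387 to 8551 and 5547 to 12064 CPM.

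Whether the effect of AZD1480 differed between members and border macrophages high in MHC class II was tested as an interaction with the hashtag as a block. It did for 3 of 3038 genes outside the rule (0.0987%), all with a more positive effect in members. At an unadjusted p under 0.05 60 of all 3052 genes tested had the more positive and 54 the more negative effect in members. For Cxcl10 the difference of log2 fold changes was 4.92 (SE 0.921), for Igf1 3.84 (SE 0.741) and for Lpl 3.61 (SE 0.703), each with an edgeR adjusted p of 0.039. For Igf1 and Lpl the groups separated in the other class and overlapped in members. In the other class Igf1 was at 39.7, 46.3, 482 and 71.6 CPM with VH and 6.99, 7.54, 0, 7.50 and 24.9 CPM with AZD1480, but in members at 168, 208, 309 and 149 against 326, 198, 296, 127 and 381. Lpl was there at 208, 333, 203 and 57.3 CPM with VH and 42, 37.7, 22.4, 30 and 0 CPM with AZD1480, and in members at 32.3, 68.2, 112 and 162 against 161, 104, 74, 211 and 449. Within members neither passed the threshold (edgeR adjusted p = 0.895 and 0.479). Cxcl10 was in members at 97, 12, 32.7 and 8.75 CPM with VH and 254, 148, 0, 127 and 166 CPM with AZD1480 (edgeR adjusted p = 0.155), and in the other class at 189, 18.5, 0 and 0 against 6.99, 15.1, 0, 0 and 0. Over all cells of the other class, cells with several hashtags included, Cxcl10 was at 55.1 CPM in PFF + VH and 65.7 in PFF + AZD1480, so it was not lower with AZD1480 there. These values rest on few molecules in the other class, 21 UMIs with VH and 3 with AZD1480 for Cxcl10, 33 and 4 for Igf1 and 69 and 16 for Lpl. Cxcl10 overlaps Art3 on the opposite strand, and whether this affects its counts was not tested. Without VH hashtag 1, or without any of AZD1480 hashtags 2 to 5, no gene passed in edgeR (89 to 153 at an unadjusted p under 0.05), without AZD1480 hashtag 1 a single other gene did, and without VH hashtag 2 Igf1 alone. With DESeq2 Lpl alone passed.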

How the data were processed

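CD45+ midbrain cells of the 4 groups were profiled with the 10x 3′ kit V3.1. The values deposited by the authors are raw UMI counts, from Cell Ranger (7.0.1 per the file headers) and mm10. They are not normalized and cover barcodes called as cells, and hashtag counts stand in the PFF matrices. The study's limits on UMIs, genes and mitochondrial share were applied here. The authors' clusters were not used. No deposited column was left unassigned to a sample.

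Members and gene lists were chosen with earlier results of these data known. Hashtags were called with HTODemux (Seurat 5.3.0, positive quantile 0.99, R 4.3.3), and counts of members were summed per hashtag. Genes were tested with edgeR 4.0.16 (quasi-likelihood F-test, TMM, filterByExpr, Benjamini-Hochberg over all genes, threshold 0.05). The study itself used a Hurdle model over cells in Partek Flow. Shares were compared by two-sided exact permutation of the hashtags. Whether hashtags are separate pools is not spelled out, so p-values may measure technical spread. The remaining steps ran in Python 3.11.15 with numpy 2.4.6 and scipy 1.17.1. Positions are from GENCODE on GRCm38 (mm10).

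Named were the rule genes, up to 4 genes of each list with the highest CPM in members, every list gene that passed, and the leading genes of each comparison (up to 10 per direction for classes and AZD1480, 5 for libraries, 3 for the interaction, outside the rule genes). Other list genes named beside a count, and those of the marker-share and Lyve1 comparisons, were named after their values were seen. In data simulated for the AZD1480 comparison (3724 genes, 200 changed), 26% of 2-fold and 84% of 4-fold changes were recovered. For the interaction (3066 genes) these were 4% and 38%. Every simulated gene had a dispersion of 0.1, and only genes with many counts were changed. The rates hold for that setting and may be lower for genes with fewer counts or a wider spread. Alternatives were MULTIseqDemux, hashtags centred within cells, at least 1000 UMIs, Scrublet (scanpy 1.11.5) scores in the top 10% left out, other limits of the rule, thinning, RLE scaling, DESeq2 1.42.0, every gene with a count, a replicate block, no nuclear RNAs, each replicate left out and, chosen after seeing the data, strong members alone. A few genes that these rules name are not reported here.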

Additional observations from a re-analysis of the deposited data

Results flagged for a closer look

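Of 28 groups of 4 or 5 hashtags checked with Dixon's test at 95%, 4 held a value far from the rest, where chance gives about 1 in 20 groups. VH hashtag 3 had the highest share of members among border macrophages, 85.7%, against 67.0 to 69.9% in the other VH hashtags. AZD1480 hashtag 5 had the highest Cxcl2 in members, 3429 CPM, against 1824 to 2236. Among border macrophages high in MHC class II, VH hashtag 1 had the highest Cxcl10, 189 CPM, against at most 18.5, and VH hashtag 3 the highest Igf1, 482 CPM, against 39.7 to 71.6.

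The effect of AZD1480 was more positive in members than in border macrophages high in MHC class II for Cxcl10 by 4.92, for Igf1 by 3.84 and for Lpl by 3.61 on the log2 scale (edgeR's quasi-likelihood test of the interaction with Benjamini-Hochberg adjustment, adjusted p = 0.039 each). Without VH hashtag 1, or without any 1 of the 5 AZD1480 hashtags, none of the 3 passed, and without VH hashtag 3 there were 4 genes, of which 2 were among the 3.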

How the results depend on the processing

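The deviations of same-numbered hashtags of the PFF groups correlated with r = -0.081 to 0.095. The best AZD1480 match had the same number for VH hashtags 3 and 4 and another number for hashtags 1 and 2. Whether hashtags of the same number share a replicate was not tested. With that number as a replicate block, which also leaves out AZD1480 hashtag 5 as it has no partner, 5 genes rose and 8 fell with AZD1480, among them the 3 and 3 reported. The share differences under the block were 0.122 (exact permutation p = 0.875) and -8.96 percentage points (p = 0.25, smallest possible 0.125). The count of genes that rose was 1 with MULTIseqDemux (not among the 3), 6 with hashtags centred within cells, 1 in strong members, 11 with members chosen after thinning to 1000 UMIs, 6 with DESeq2 and 35 when low counts were not filtered out. The count that fell was 8 with MULTIseqDemux, 16 with centring within cells, 5 at 1000 UMIs or more, 14 without the top Scrublet scores, 9 from 3 marker UMIs, 7 with MHC class II under 0.5%, 1 in strong members, 10 after thinning, 5 with DESeq2 and 64 with no filter. With each replicate left out these counts were 0 to 4 and 2 to 7 (fallen genes: 7 without AZD1480 hashtag 1, 5 without its hashtag 5 and 2 without VH hashtag 4), and 0 to 4 genes differed between the classes, against 1 with DESeq2 and 13 with no filter. The difference in the share of CD45+ cells was 0.122 to 0.506 with a hashtag left out, but -0.337 with MULTIseqDemux and -0.310 after thinning to 2000 UMIs (0.0202 at 1000), so its direction depended on both. The difference in the share of border macrophages was -8.96 to -1.23 with a hashtag left out (-1.23 without VH hashtag 3) and -4.96 after thinning to 1000 and -14.9 after thinning to 2000 (p = 0.619 and 0.0476, exact permutation). None of the 9 named genes turned direction. Ccdc152 kept its call in 23 of 23 alternatives, Csmd3 in 23 of 24, Slfn8 in 19 of 23, Ets2 in 18, Il1b in 17 and Cxcl2 in 14 of 24, and Lpl, Cxcl10 and Igf1 in 5, 4 and 3 of 12. At 1.5-fold 238 genes separated members from border macrophages high in MHC class II and 893 from microglia, against 100 and 485 at 2-fold, and strong members gave 248 for the former. Between monomer and PBS 25 genes passed 2-fold at 100 CPM or more and 208 in strong members (95 as reported), and between PFF + VH and monomer 77 and 320 (158). Strong members shared 55 of the 95 and 68 of the 158. Few cells and, in PFF + VH, low depth per cell limit all of these.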
